A study of Homo sapiens with 4 samples.

Results

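The genes of epidermal growth factor receptor signaling were examined in SKOV3 cells grown flat or as tumor spheroids. The 10 genes followed were EGFR, ERBB3, ERBB4, EREG, AREG, HBEGF, TGFA, BTC, NRG1 and ERRFI1. They were chosen by symbol, as 10 of the 19475 genes in the deposited expression table, and a gene with several transcripts was represented by the one whose 4 values averaged highest. SKOV3 is an established human ovarian cancer cell line known for amplification of ERBB2. The measurement was mRNA-seq of 2 libraries from cells on a tissue culture plate (TCP), labelled day 0, and 2 libraries from tumor spheroids on a plate coated with polymer X, labelled day 8. All 4 libraries came from unmodified SKOV3 cells with no added agent named in the labels. The paper's methods maintained SKOV3 cells with fetal bovine serum and grew spheroids with serum replacement, whereas the labels give a single serum replacement protocol for every library. The substrate, the time in culture and any difference in medium change together between the groups and cannot be told apart.

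The receptors of this family are EGFR, ERBB2, ERBB3 and ERBB4, which sit in the cell membrane and pair when a ligand binds. EREG, AREG, HBEGF, TGFA and BTC encode ligands of EGFR, some of which also bind ERBB4, and NRG1 encodes neuregulins, which bind ERBB3 and ERBB4. Ligands are made as membrane proteins and are cut free by proteases, the paired receptors signal through the RAS-ERK and PI3K pathways, and ERRFI1 (also called MIG6) is a feedback inhibitor that binds the kinase domain of the receptors. In ovarian cancer cells these signals are known to drive growth and survival.

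Expression was given as FPKM, the tags on a transcript scaled to its length and to the tags of the library, so that levels can be compared between genes. The libraries were scaled to between 38403000 and 44912000 tags. The 2 libraries of a group correlated at r = 0.9979 on TCP and 0.9967 on polymer X across the genes tested. Of the 6 epithelial markers examined, 3 reached an FPKM of 1 on TCP and 4 on polymer X, with CDH1 and KRT19 under 1 in every library and EPCAM under 1 on TCP. Of the 4 ovarian cancer markers, PAX8 was present in both groups (mean FPKM 49.7 on TCP and 105 on polymer X) while WT1 and MUC16 lay near 0. MSLN was at 1.55 and 0.818 on TCP and 2.24 and 2.06 on polymer X. The 4 leukocyte markers summed to 0.160 and 0.0960 on TCP and 0.823 and 0.962 on polymer X, and the 3 endothelial markers summed to 0.00900 and 0.0190 on TCP and 0.617 and 0.489 on polymer X, so both sums were low in all libraries and higher in the spheroids. Most of these sums on polymer X came from PTPRC (0.468 and 0.530) and PECAM1 (0.573 and 0.458), while CD3E was listed at 0 in every library. The 3 fibroblast markers summed to 8.34 and 8.56 on TCP and 11.2 and 9.99 on polymer X, of which DCN moved from a mean of 0.0125 to 6.73, COL1A1 from 8.34 to 3.79, and PDGFRB lay near 0. The part of these markers in the results was not tested.

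The libraries of a group are duplicates, and although the paper states in general that its experiments had independent replicates, no source used here says whether these libraries came from separate cultures, so p-values measure only the spread between these libraries, which may be technical. With 2 libraries a group, an exact permutation test of a single gene cannot give a two-sided p below 0.333. Tests were therefore taken from limma fitted across the 11964 genes that reached an FPKM of 1 in 2 or more libraries, on the scale of log2(FPKM + 1), which understates the change of low genes. A gene was called when its Benjamini-Hochberg adjusted p was under 0.05 and its log2 fold change was 1 or more in size. By this rule 10.7% of all genes tested were called higher on polymer X and 9.45% were called lower, and the adjusted p alone was passed by 81.0% of them. The FPKM of the 2 groups did not overlap in 90.4% of the genes tested. The median log2 fold change over all genes tested was -0.06.

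Of the 10 genes, 6 passed the filter on low values and were tested. EGFR, NRG1 and HBEGF fell on polymer X, and ERRFI1 rose. TGFA and BTC were higher on polymer X with an adjusted p under 0.05 but a log2 fold change under 1. ERBB3, ERBB4, EREG and AREG had an FPKM under 1 in every library and were not tested. The TCP and polymer X values did not overlap for any of the 10 genes on the transcripts used. The same held for 90.4% of all genes tested, and ERBB3, ERBB4, EREG and AREG rest on few tags.

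**Figure D1:**
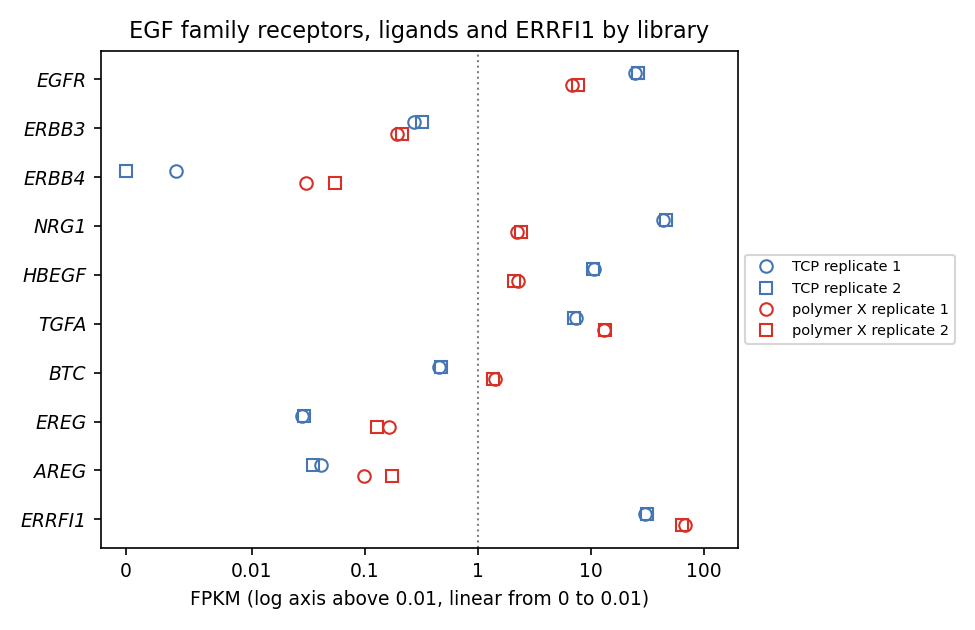
FPKM of the 10 genes in each library on a log axis, with TCP and polymer X libraries as separate colors and a dotted line at an FPKM of 1. NRG1 moves from the highest of the 10 on TCP to near 2 on polymer X, and the 4 genes at the low end stay under the line in every library.

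Among the receptors, EGFR had an FPKM of 24.8 and 25.9 in the TCP libraries and 6.80 and 7.69 in the polymer X libraries. Both spheroid libraries lay well below both TCP libraries. The mean fell from 25.3 ± 0.788 to 7.24 ± 0.630 (SD, n = 2 libraries a group), which is 3.50-fold lower, with 3.22-fold to 3.81-fold over the pairs of libraries. In limma the log2 fold change was -1.68 (SE 0.07, 95% interval -1.84 to -1.52, adjusted p = 3.6e-08). EGFR lies on the plus strand at chr7:55086714-55275773 in hg19 (NM_001346941). The table holds 9 RefSeq transcripts of EGFR, which share most of their tags, and their log2 fold changes ran from -1.98 to -1.68. Counting did not use strand, so RNA antisense to EGFR, such as EGFR-AS1, cannot be told apart from it.

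ERBB3, which encodes a receptor with little kinase activity of its own, was at 0.274 and 0.320 on TCP and 0.191 and 0.212 on polymer X (NM_001005915, chr12:56473892-56479401). These values stand for 11 and 15 tags against 8 and 9, a ratio of polymer X to TCP of 0.675 with an exact 95% interval of 0.344 to 1.29, so no difference was detectable at this depth. The longer transcript NM_001982 was at 0.236 and 0.276 on TCP and 0.192 and 0.275 on polymer X, where the groups overlap. ERBB4 (NM_001042599, minus strand, chr2:212240442-213403352) was at 0.004 and 0 on TCP and 0.030 and 0.054 on polymer X. Its tags were 2 and 0 on TCP and 14 and 26 on polymer X, a ratio of 20.6 with an interval of 5.35 to 176. Tag intervals cover counting error only and are too narrow if tags were mates of a pair. ERBB4 remained the lowest of the receptors in both groups.

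ERBB2, the receptor without a known ligand, was the most abundant of the family, at 198 and 206 on TCP and 913 and 860 on polymer X. It rose with a log2 fold change of 2.13 (limma adjusted p = 6.7e-09). EGFR therefore made up 11.1% of the summed FPKM of the 4 receptors on TCP and 0.810% on polymer X. The ratio of ERBB2 to EGFR was 8.00 and 7.94 in the TCP libraries and 134 and 112 in the polymer X libraries. As these are whole cultures, fewer cells of a type and less RNA per cell cannot be told apart.

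The largest fall of the 10 genes was that of NRG1, at 43.2 and 46.1 on TCP and 2.24 and 2.38 on polymer X (NM_001160005, plus strand, chr8:32405728-32600770). The libraries of each group lay close together and the groups were far apart. The mean fell from 44.6 ± 1.99 to 2.31 ± 0.103, which is 19.3-fold lower (18.1-fold to 20.6-fold over the pairs). The log2 fold change was -3.78 (SE 0.06, 95% interval -3.93 to -3.64, limma adjusted p = 3.5e-10), the 8th lowest of the 11964 genes tested.

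NRG1 is known for many isoforms that begin at separate promoters, and the table lists 23 transcripts with 5 start sites. All 23 were lower on polymer X, by 9.36-fold to 19.5-fold. The 11 transcripts that begin at position 32405728 had the highest TCP means, from 26.3 to 44.6, and were 11.6-fold to 19.5-fold lower. The single transcript of the most upstream start, at 31497268, had means of 17.3 and 1.06 and was 16.3-fold lower. The 5 transcripts from 32453344 were 9.89-fold to 10.1-fold lower, the 4 from 32504251 were 9.36-fold to 15.5-fold lower, and the 2 from 32579271 were 9.36-fold to 9.45-fold lower. Transcripts of a gene share tags wherever their exons overlap, so these are not separate measurements of each start.

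**Figure D2:**
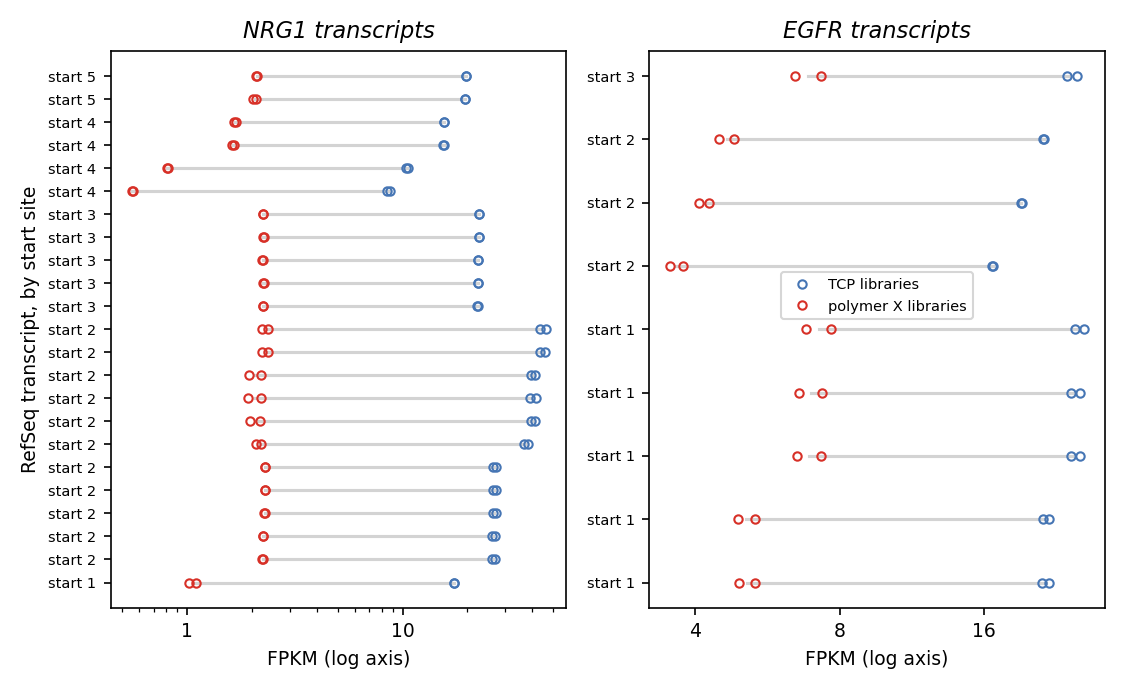
FPKM of every listed transcript of NRG1 (left, 23 rows) and EGFR (right, 9 rows) on log axes, 1 circle a library, with rows labelled by start site numbered along the plus strand. The polymer X circles lie to the left of the TCP circles in each row.

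HBEGF, the heparin-binding ligand, was at 10.7 and 10.4 on TCP and 2.28 and 2.09 on polymer X (NM_001945, minus strand, chr5:139712428-139726188). Each spheroid library lay far below both TCP libraries. The mean fell from 10.5 ± 0.209 to 2.18 ± 0.129, 4.81-fold lower (4.56-fold to 5.10-fold over the pairs), with a log2 fold change of -1.85 (SE 0.07, limma adjusted p = 2.0e-08).

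TGFA, which encodes transforming growth factor alpha, was at 7.40 and 7.13 on TCP and 13.0 and 13.4 on polymer X (NM_001099691, minus strand, chr2:70674412-70781147). Both polymer X values were above both TCP values, and the difference was larger than the spread within a group. The mean was 7.26 ± 0.195 on TCP and 13.2 ± 0.346 on polymer X, 1.82-fold higher (1.75-fold to 1.89-fold over the pairs). The log2 fold change of 0.78 (SE 0.06, 95% interval 0.64 to 0.92, limma adjusted p = 2.5e-06) was under the minimum for a call. The 4 transcripts of TGFA gave 0.78 to 0.79.

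BTC, the ligand betacellulin, was at 0.450 and 0.469 on TCP and 1.41 and 1.37 on polymer X (NM_001316963, minus strand, chr4:75669970-75719896). It passed the filter through the polymer X libraries alone. Its tags were 46 and 56 on TCP and 150 and 148 on polymer X, a ratio of 3.02 with an exact interval of 2.40 to 3.81. The log2 fold change was 0.71 (SE 0.08, limma adjusted p = 3.1e-05) and was not called, while with a pseudocount of 0.1 it was 1.41 (adjusted p = 4.9e-05) and was called higher. After quantile normalization it was 0.17 (adjusted p = 0.092).

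EREG (epiregulin, plus strand, chr4:75230860-75254477) was at 0.028 and 0.029 on TCP and 0.162 and 0.128 on polymer X. These were 5 and 6 tags against 30 and 24, a ratio of 5.07 with an interval of 2.62 to 10.7. AREG (amphiregulin, plus strand, chr4:75310815-75320726) was at 0.041 and 0.035 on TCP and 0.099 and 0.174 on polymer X, from 2 and 2 tags against 5 and 9. Its ratio was 3.61 with an interval of 1.13 to 15.1, and because the transcript is listed at 2 places in hg19, its tags are uncertain. Both ligands stayed far below an FPKM of 1 in the spheroids.

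The genes EPGN, EREG, AREG and BTC are the only 4 genes of the table within chr4:75174187-75719896, a stretch of 545.71 kb in hg19. The groups did not overlap in any of the 4, with polymer X higher, where 90.4% of all genes tested do not overlap in either direction, and EREG and AREG rest on few tags. EPGN, which encodes epigen, another EGFR ligand, was at 0.073 and 0.071 on TCP, from 7 and 8 tags, and at 6.81 and 5.33 on polymer X, from 684 and 544 tags. It rose with a log2 fold change of 2.71 (SE 0.11, limma adjusted p = 2.3e-08), and it too passed the filter through polymer X alone.

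The order of the ligands by FPKM differed between the groups. On TCP the highest was NRG1, with 69.6% of the summed FPKM of all 11 ligands listed, followed by HBEGF with 16.4% and TGFA with 11.3%, and these 3 did not overlap each other. On polymer X the highest was TGFA with 46.4%, followed by EPGN with 21.3%, NRG1 with 8.13% and HBEGF with 7.68%. The libraries of NRG1 and HBEGF overlapped in the spheroids, so their order there is not resolved. NRG2, BTC and NRG4 followed with 6.28%, 4.88% and 3.97%, and EREG (0.162 and 0.128) lay above EGF (0.113 and 0.071), while AREG overlapped both. NRG3 was listed at 0 in all 4 libraries. The summed FPKM of the ligands was 63.1 and 65.2 on TCP and 28.8 and 28.1 on polymer X. The ratio of TGFA to NRG1 was 0.171 and 0.155 on TCP and 5.79 and 5.64 on polymer X. These shares, sums and ratios use the transcript of each gene with the highest average. The longest NRG1 transcript had a mean of 15.5 on TCP and 1.64 on polymer X. The size of the NRG1 share, of the fall in the sum and of the ratio therefore depends on the transcript chosen.

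**Figure D3:**
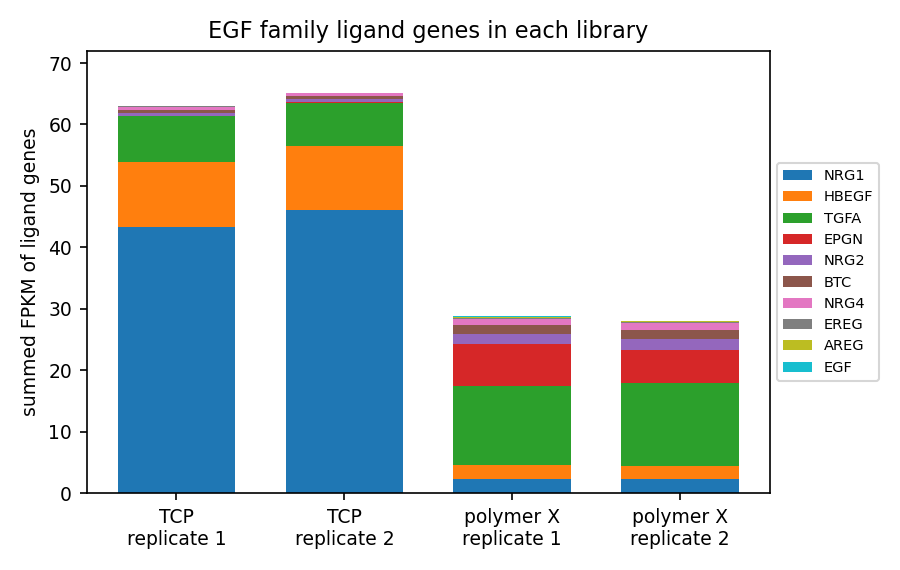
FPKM of the EGF family ligands in each library as parts of a stacked bar, for TCP and polymer X, with NRG3 left out because it was listed at 0. NRG1 is the largest part of the bars on TCP and TGFA the largest on polymer X, where EPGN is second.

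ERRFI1, the feedback inhibitor, was at 30.4 and 31.1 on TCP and 67.3 and 63.6 on polymer X (NM_018948, minus strand, chr1:8071779-8086393). Both spheroid libraries exceeded both TCP libraries. The mean rose from 30.8 ± 0.556 to 65.5 ± 2.63, 2.13-fold higher (2.04-fold to 2.22-fold over the pairs). The log2 fold change was 1.07 (SE 0.06, 95% interval 0.94 to 1.19, limma adjusted p = 1.6e-07), so the interval reaches below the minimum of 1.

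**Figure D4:**
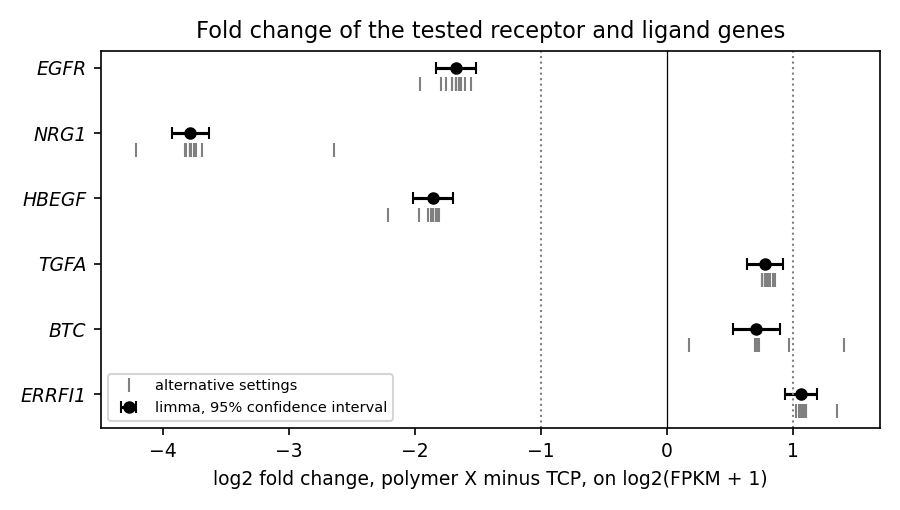
Log2 fold change (polymer X minus TCP) of the 6 genes tested, with 95% intervals from limma, grey ticks for the alternative settings and dotted lines at -1 and 1. EGFR, NRG1 and HBEGF lie beyond the lower line in every setting, ERRFI1 lies just past the upper line, and BTC passes it with a pseudocount of 0.1.

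The stretch before the start of a gene is where the general transcription machinery and many regulators bind. The 250 bases before the start of EGFR and HBEGF, which fell, and of ERRFI1, which rose, are shown 5′ to 3′ on the strand of the gene, from RefSeq on GRCh38.p14, with matches to the GC box, the letters bound by SP1, in capitals on either strand. The windows are chr7:55018767-55019016 (plus strand), chr5:140346604-140346853 (minus strand) and chr1:8026310-8026559 (minus strand).
EGFR: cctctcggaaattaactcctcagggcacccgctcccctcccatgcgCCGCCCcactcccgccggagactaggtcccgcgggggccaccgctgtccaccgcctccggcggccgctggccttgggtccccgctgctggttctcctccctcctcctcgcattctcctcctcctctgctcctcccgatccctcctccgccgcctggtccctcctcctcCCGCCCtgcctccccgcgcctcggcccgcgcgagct
HBEGF: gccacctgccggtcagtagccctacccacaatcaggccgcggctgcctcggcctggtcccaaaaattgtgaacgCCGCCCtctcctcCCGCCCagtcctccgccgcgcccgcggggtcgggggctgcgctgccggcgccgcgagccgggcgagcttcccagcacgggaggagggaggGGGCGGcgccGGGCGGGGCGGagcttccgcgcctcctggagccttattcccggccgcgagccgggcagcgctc
ERRFI1: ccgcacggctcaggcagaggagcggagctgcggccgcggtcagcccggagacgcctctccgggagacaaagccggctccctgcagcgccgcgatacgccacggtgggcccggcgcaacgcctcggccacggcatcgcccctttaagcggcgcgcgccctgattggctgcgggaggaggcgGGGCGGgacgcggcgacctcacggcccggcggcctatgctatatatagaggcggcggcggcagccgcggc

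The EGFR window held 2 GC boxes, that of HBEGF held 5, of which a pair overlap, and that of ERRFI1 held 1. Their GC contents were 73.6%, 76.4% and 75.2%. Windows were matched for 8 of the 10 genes, all but ERBB3 and NRG1, and 6 of the 8 held a GC box (GGGCGG), as did 42.6% of all 35116 windows of the same length. The CRE (TGACGTCA) was matched in AREG alone and in 1.65% of all windows. The AP-1 motif (TGANTCA) and the STAT motif (TTCNNNGAA), each found in 6.57% of all windows, were matched in 0 of the 8. All motifs were searched on both strands and no match overlapped one of another motif in these 8 windows. A match is a run of letters, not a bound site, and genes that fell and the gene that rose both hold GC boxes.

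Outside the 10 genes, 80 genes of the pathway were listed by role and 75 were tested, of which 11 (14.7%) rose and 6 (8%) fell, with a median log2 fold change of -0.07, against 10.7%, 9.45% and -0.06 for all genes tested. Of the 11 that rose, EPGN, VAV3 and SPRY4 passed the filter through polymer X alone. Without the genes that passed through 1 group alone, 8 of 70 (11.4%) rose and 6 (8.57%) fell, against 7.94% and 9.69% of all genes. The other receptor and ligands numbered 6, of which 4 were tested, and 2 (ERBB2 and EPGN) rose and 0 fell. NRG2 (0.486 and 0.478 on TCP, 1.68 and 1.89 on polymer X) and NRG4 (0.587 and 0.512 on TCP, 1.06 and 1.20 on polymer X), which passed the filter through polymer X alone, were not called.

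Of the 8 genes tested for ligand release, 1 rose and 1 fell (12.5% each), near the 10.7% and 9.45% of all genes tested. RHBDF1, an inactive rhomboid protein that acts in the maturation of the protease ADAM17, rose from a mean of 6.98 ± 0.0622 to 18.0 ± 1.74 (log2 fold change 1.25, limma adjusted p = 3.3e-07). ADAM9, a membrane protease, fell from 90.8 ± 0.864 to 40.6 ± 3.11 (log2 fold change -1.14, limma adjusted p = 2.3e-07). ADAM17, the main protease for TGFA, AREG and HBEGF, had a log2 fold change of 0.46, and ADAM10, the main protease for BTC and EGF, one of -0.22, which was 0.083 after quantile normalization, and neither was called.

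The adaptors and signal relay genes were all tested, and 2 of the 30 rose and 2 fell. These shares of 6.67% each compare with 10.7% and 9.45% of all genes tested. VAV3, a guanine nucleotide exchange factor, passed the filter through polymer X alone, with 0.90 and 0.726 on TCP and a mean of 6.20 on polymer X (log2 fold change 1.99), and PIK3R3, a regulatory subunit of PI3K, rose from 1.45 to 4.56 (1.17, limma adjusted p = 4.2e-06). PTPN11, the phosphatase SHP2 that relays receptor signals to RAS, fell from 63.1 to 26.2 (-1.24, adjusted p = 1.4e-07).

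Of the 20 receptor downregulation genes tested, 0 rose and 2 (10%) fell, against 10.7% and 9.45% of all genes tested. UBASH3B, a phosphatase that binds CBL, fell from a mean of 5.96 to 2.08 (log2 fold change -1.18, limma adjusted p = 8.5e-07). SH3KBP1, an adaptor of CBL in receptor endocytosis, fell from 20.0 to 8.98 (-1.07, adjusted p = 2.1e-07). The other 18 were not called. After quantile normalization ADAM9, PIK3R3, PTPN11 and SH3KBP1 were under the fold minimum, at -0.84, 0.96, -0.96 and -0.96.

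Of 13 genes known to respond to ERK, 6 (46.2%) rose and 1 (7.69%) fell, against 10.7% and 9.45% of all genes tested. One of those that rose, SPRY4, passed the filter through polymer X alone. DUSP6, a phosphatase of ERK, rose from a mean of 2.37 to 22.0 (log2 fold change 2.77, limma adjusted p = 2.3e-09), and the ETS factors ETV4 and ETV5 rose from 1.73 to 12.1 (2.26, adjusted p = 6.4e-09) and from 2.90 to 11.9 (1.72, adjusted p = 2.4e-08). FOSL1, a subunit of AP-1, fell from 102 to 24.9 (-1.99, adjusted p = 4.7e-09). The log2 fold change was positive for 9 of the 13 and negative for 4, among them DUSP5 (-0.73), EGR1 (-0.32) and IER3 (-0.25), which were not called. In the same spheroid libraries EGFR, NRG1 and HBEGF fell, while ERBB2, EPGN and ERRFI1 rose. Links between these changes were not tested.

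**Figure D5:**
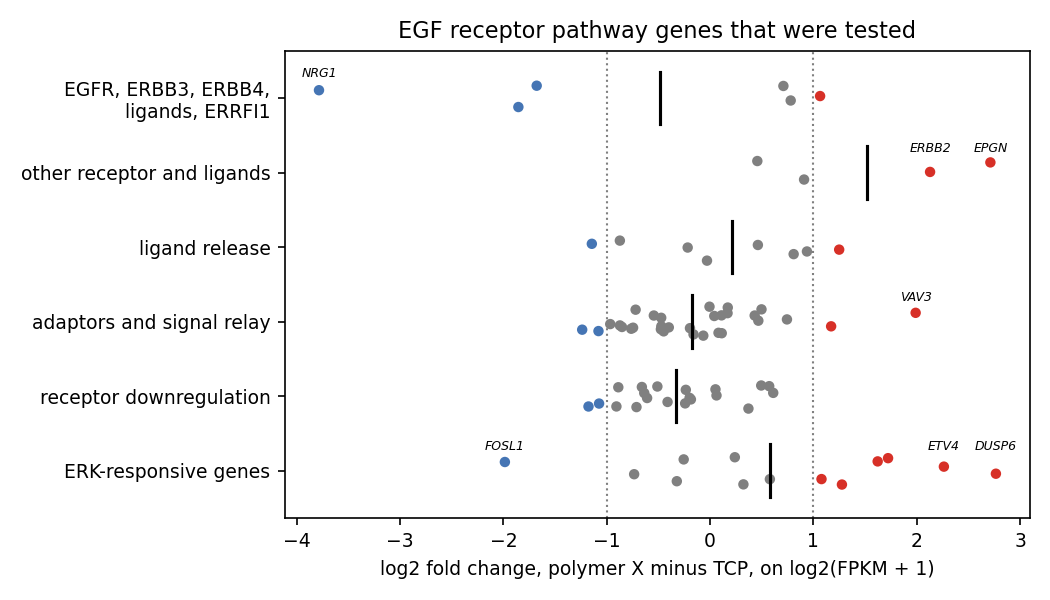
Log2 fold change (polymer X minus TCP) of the 6 tested genes of the 10 (top row) and of each tested gene of the 5 pathway lists, 1 point a gene, with genes called higher in red, genes called lower in blue, black bars at the medians and dotted lines at -1 and 1. The median is 1.52 for the other receptor and ligands, 0.58 for ERK-responsive genes and -0.33 for receptor downregulation, against -0.06 for all genes tested. The median of 1.52 rests on 4 genes. Of these, EPGN, NRG2 and NRG4 passed the filter through polymer X alone, which fixed their positive sign.

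The genes whose 4 values lay closest to those of ERRFI1, by Euclidean distance on log2(FPKM + 1) over the 4 libraries, were BNIP3L, HOXB8 and MECOM, at distances of 0.112, 0.171 and 0.177. BNIP3L, a mitophagy receptor, was at 32.3 and 32.5 on TCP and 65.2 and 63.9 on polymer X. The closest to NRG1 were CCBE1, PRSS23 and KRT81, at 0.557, 0.560 and 0.831. CCBE1, a secreted protein of lymphatic growth, was at 38.6 and 38.6 on TCP and 3.30 and 2.98 on polymer X, and none of the 3 reached the low level of NRG1 in the spheroids.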

How the data were processed

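mRNA-seq libraries of SKOV3 cells on TCP (2) and on polymer X (2) were analysed. The authors deposited FPKM values for each of 50078 RefSeq transcripts on hg19, made with HOMER from tags on exons of both strands, and the submitters' processing notes also name STAR 2.4.0 and DESeq. Duplicates were not pooled. Strand was not used in counting although the kit was directional. The FPKM values multiplied by length fell on whole tags (100.0% of low values within 0.1 of a whole number), which gave the tags per library. A count of 0 allows up to 3 tags.

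For each of 19475 symbols 1 transcript was kept, that with the highest average. Genes that reached an FPKM of 1 in 2 or more libraries were fitted on log2(FPKM + 1) with limma 3.58.1 (R 4.3.3) with a trend of variance on level and without a replicate block, after a check on simulated data. Adjusted p-values are Benjamini-Hochberg values over all genes tested. Figures used matplotlib 3.10.9. The 10 genes, the pathway lists and the tests were chosen with earlier results of these data known. All 10 genes were named, with the called genes of each list that had the 3 largest changes in each direction, and the 3 genes nearest to the largest called rise and fall. ERBB2, NRG2, NRG3, NRG4, EGF, ADAM10 and ADAM17 were named besides, and 1 called gene of the adaptors and signal relay list is not reported here. The marker genes served only to check the cell type. Alternatives were another pseudocount, filter, scaling, transcript choice, fold minimum, trend setting or replicate block, and leaving out each library. Running the other named pathway genes under them, and leaving out genes that passed the filter through 1 group alone, were chosen after seeing the data. For same-numbered libraries the correlation of their deviations from the group means was computed, which alone cannot settle whether they are paired.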

Additional observations from a re-analysis of the deposited data

How the results depend on the processing

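None of the 10 genes changed direction under the alternatives run. Of the 17 other pathway genes named and run under the same alternatives, chosen after the data were seen, NRG4 and ADAM10, neither of them called, changed sign with quantile normalization (-0.12 and 0.083). ADAM9, PIK3R3, PTPN11 and SH3KBP1 were no longer called with that normalization, at -0.84, 0.96, -0.96 and -0.96. NRG2 was called higher with a pseudocount of 0.1 (1.69) and with summed transcripts (1.53). The number of the 10 genes called higher was 1, and was 2 with a pseudocount of 0.1, 3 with no minimum of fold change and 0 with a minimum log2 fold change of 2. The number called lower was 3, and was 1 with that minimum of 2. Of the pathway genes, 11 were called higher, and 7 with a mean FPKM of at least 5, 27 with no minimum of fold change and 4 with a minimum of 2. Of these genes 6 were called lower, and 2 with quantile normalization, 37 with no minimum, against the 27 higher, and 0 with a minimum of 2. Among all genes tested, 1285 were called higher and 1131 lower. With a mean FPKM of at least 5 these counts were 702 and 960 of 8166 genes. With quantile normalization they were 1181 and 1020. The log2 fold change was positive for 5600 of all genes tested and negative for 6364, and 81.0% passed the adjusted p alone in either direction. BTC reached 1.41 with a pseudocount of 0.1, and it was not tested with either polymer X library left out or with a mean FPKM of at least 5. NRG1 was at -2.64 with its longest transcript. On the log2 scale, the untested ERBB3, ERBB4, EREG and AREG moved from -0.11, 0.06, 0.15 and 0.13 to -0.40, 0.47, 0.93 and 0.76 with the pseudocount of 0.1. ERBB3 was at -0.03 with the longest transcript and ERBB4 at 0.11 with summed transcripts. The causes were not tested. Without 1 library at a time EGFR ran from -1.76 to -1.60, NRG1 from -3.83 to -3.74, HBEGF from -1.90 to -1.81 and ERRFI1 from 1.02 to 1.11. Same-numbered libraries share only a number (r = 0.0927 of their deviations across 11964 genes), and a replicate block left 1 gene called higher and 3 lower. Depth limits the 4 genes under the filter, which rest on 0 to 30 tags a library.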
